A study of Rattus norvegicus with 61 samples.

Results

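A set of 150 liver transcripts whose levels were lower after both of 2 liver toxicants, acetaminophen (APAP) and 4,4'-methylene dianiline (MDA), was described across 61 rat samples. Of 31196 listed transcripts, 13482 were kept because they averaged 1 CPM or more over the 15 livers, and the 150 were taken from these. CPM is the deposited value divided by the library total and multiplied by 1000000. For each transcript, A was the log2 ratio of the APAP mean plus 1 CPM to the Ctrl mean plus 1 CPM, M was the same ratio for MDA, and the median over the 13482 transcripts was subtracted from each. The members were chosen by these measured values, as the 150 transcripts with the lowest value of the larger of A and M. They are numbered by that value, so that the member ranked 1 had the deepest decrease after the weaker of its 2 treatments.

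The rats were male wild-type Sprague-Dawley animals of 6 weeks. The 5 Ctrl livers came from rats given the vehicle, 0.5% methylcellulose at 10 µL/g by gavage. The 5 APAP livers came from rats given 3 g/kg APAP and the 5 MDA livers from rats given 300 mg/kg MDA, both by gavage, and all livers were taken after 24 h. All rats of the 3 liver groups were fasted overnight before dosing, and the livers were perfused with buffer before a piece of the largest lobe was sampled, so both conditions are shared with Ctrl. The other samples were from untreated rats: 5 spleens and 5 samples of whole blood cells (WBC), both after lysis of the red cells, and 6 samples each of sorted B cells, NK cells, CD4 T cells and CD8 T cells from spleen and of neutrophils and monocytes from blood.

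Hepatocytes, the main cells of the liver, make most plasma proteins and carry enzymes of bile acid, amino acid and drug metabolism that few other cells hold at a high level. APAP is converted in hepatocytes by cytochrome P450 enzymes to a reactive product that binds protein and kills cells around the central veins. MDA is a known toxicant of the bile duct epithelium that also injures hepatocytes. A bulk liver library mixes hepatocytes with bile duct, endothelial, stellate and immune cells, so a lower level in fewer cells of a type and a lower level of RNA per cell cannot be told apart in these data.

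The files give Ensembl transcript identifiers without gene names, and 0 of the 31196 identifiers matched the 47357 rat genes of the RefSeq list used here. Members are therefore described by rank and by their levels, no gene function is assigned to any of them, and the liver label could not be checked against named hepatocyte markers. Transcripts of the same gene may be among the 150 as separate members. Whether transcript length was divided out of the values is not given in the sources used here, so levels are compared between samples and are not a measure per length between transcripts.

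Liver libraries held 10484912 to 14146402 estimated counts and the 46 other libraries 3429971 to 13587693. The 10 most abundant transcripts took 24.9% to 29.6% of a Ctrl liver library, 15.0% to 18.5% after APAP and 20% to 23.8% after MDA. On the CPM scale the median transcript was higher in treated than in Ctrl livers, by 0.61 after APAP and 0.46 after MDA (log2), and A and M are relative to these shifts, whose cause was not tested. Nothing in the labels says whether the 5 livers of a group are more than separately numbered samples, so p-values measure the spread between these samples, which may be technical. Ctrl liver 1 stood apart from the other Ctrl livers in the members, and the counts of members with no overlap between Ctrl and treated livers are given with and without it.

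The values that chose the members are given as a description, with no test. A ran from −7.90 to −1.6 with a median of −2.45, and M from −7.88 to −1.59 with a median of −2.28. In CPM without centring, a median of 23.2% of the Ctrl level was left after APAP (range 0% to 50%) and 22.4% after MDA (range 0% to 45.3%). The Ctrl means covered a wide range, from 2.30 to 20785 CPM with a median of 43.1 CPM. Of the 150, 44 were below 10 CPM in Ctrl, 50 lay between 10 and 100, 43 between 100 and 1000, and 13 at 1000 or above, and 11 were among the 100 most abundant transcripts of the Ctrl livers.

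The limit of the list fell within a dense part of the distribution, where the 3 members just inside had a larger value of A and M of −1.596, −1.591 and −1.587, and the 3 transcripts just outside −1.586, −1.584 and −1.576. Levels at the limit were mixed, from 2.92 to 191 CPM in Ctrl for the 3 inside and from 2.23 to 24.2 CPM for the 3 outside. A total of 1253 transcripts had both A and M at or below −0.5, of which the 150 are the far end.

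**Figure D1:**
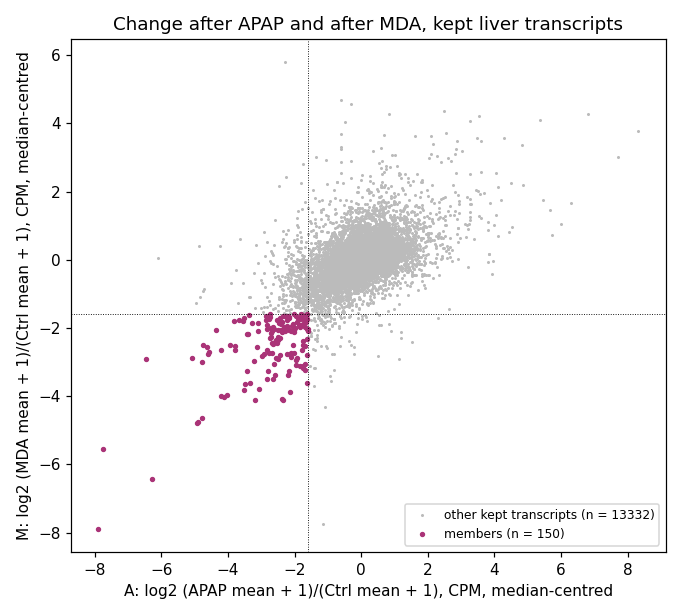
Each point is 1 of the 13482 kept liver transcripts, with A (APAP against Ctrl) on the horizontal and M (MDA against Ctrl) on the vertical axis, both log2 and median-centred. The 150 members, in purple, fill the lower left corner bounded by the dotted lines at −1.59, and a few reach below −4 on both axes.

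The member ranked 1, ENSRNOT00000010639, was close to absent after treatment. In the Ctrl livers it stood at 171.6, 268.0, 189.3, 140.7 and 208.0 CPM (mean 195.6 ± 47.5, SD, n = 5). After APAP the 5 livers gave 0.283, 0.396, 0.0735, 0 and 0.530 CPM, which together were 14.4 estimated counts. After MDA they gave 0, 0.151, 0.194, 0 and 0.376 CPM, or 9.79 estimated counts in all. The lowest Ctrl liver was far above the highest treated liver, and the APAP and MDA livers overlapped each other.

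The most abundant member, ENSRNOT00000022113, ranked 109, was the 6th most abundant transcript of the Ctrl livers. It was measured there at 24854, 20780, 21891, 19323 and 17075 CPM (mean 20785 ± 2902). The APAP livers held 5561, 7370, 6367, 6957 and 7206 CPM, a mean of 32.2% of Ctrl, and the MDA livers 8474, 8405, 7240, 9494 and 8445 CPM, a mean of 40.5%. All treated livers were below all Ctrl livers, and the APAP and MDA ranges touched between 7240 and 7370 CPM. It was listed at 0 in all spleen and WBC samples.

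The member ranked 2 showed the same kind of drop at a high starting level, from 3388 ± 1305 CPM in Ctrl (SD, n = 5) to 65.0 ± 41.7 after APAP and 53.3 ± 14.4 after MDA. Its Ctrl livers ranged from 1244 CPM in Ctrl liver 1 to 4739 CPM in Ctrl liver 5, and its highest treated liver, APAP liver 5, held 126 CPM, so the groups did not overlap.

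The member ranked 3 was uneven already among the controls. Its Ctrl livers read 49.2, 1270, 1413, 1459 and 544 CPM, its APAP livers 4.74, 1.46, 4.58, 3.69 and 14.2 CPM, and its MDA livers 13.7, 19.4, 18.8, 24.0 and 58.8 CPM. Ctrl liver 1, the lowest control, was below MDA liver 5, so the MDA group overlapped Ctrl through that pair alone, while the APAP group did not.

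Other members near the top of the list had tighter controls. The member ranked 10 was at 422, 427, 418, 449 and 469 CPM in Ctrl, at 40.8 to 82.1 CPM after APAP and at 23.1 to 62.0 CPM after MDA. The member ranked 12 was at 614 to 790 CPM in Ctrl, at 71.1 to 131 CPM after APAP and at 48.8 to 108 CPM after MDA. Controls and treated livers of both members lay well apart. Neither of them exceeded 0.02 CPM as a mean in any spleen, WBC or sorted group.

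Members at a lower level followed a like course. The member ranked 7 was at 80.6 ± 36.3 CPM in Ctrl, 6.11 ± 2.09 after APAP and 5.83 ± 0.72 after MDA, and its lowest Ctrl liver, Ctrl liver 1 at 17.4 CPM, was still above the highest treated liver at 8.69 CPM. The member ranked 8 moved from 280.0 ± 116 CPM to 22.2 ± 9.72 and 23.3 ± 2.01 CPM, with Ctrl liver 1 again the lowest control at 92.7 CPM.

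Among the abundant members, the one ranked 34 held 5827, 8602, 8765, 9771 and 9300 CPM in Ctrl, 1883, 1206, 3182, 1814 and 2822 CPM after APAP, and 1486, 1502, 1809, 1156 and 1901 CPM after MDA. The APAP livers spread over a wider range than the MDA livers here, and neither reached the lowest Ctrl liver. The member ranked 65 was highest in Ctrl liver 1, at 6114 CPM against 3683 to 4959 CPM in the other 4, and was at 589 to 1612 CPM after APAP and 1266 to 1663 CPM after MDA. The member ranked 35 went from 2236 to 5517 CPM in Ctrl, with Ctrl liver 3 the lowest, to 335 to 1301 CPM and 807 to 1235 CPM.

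**Figure D2:**
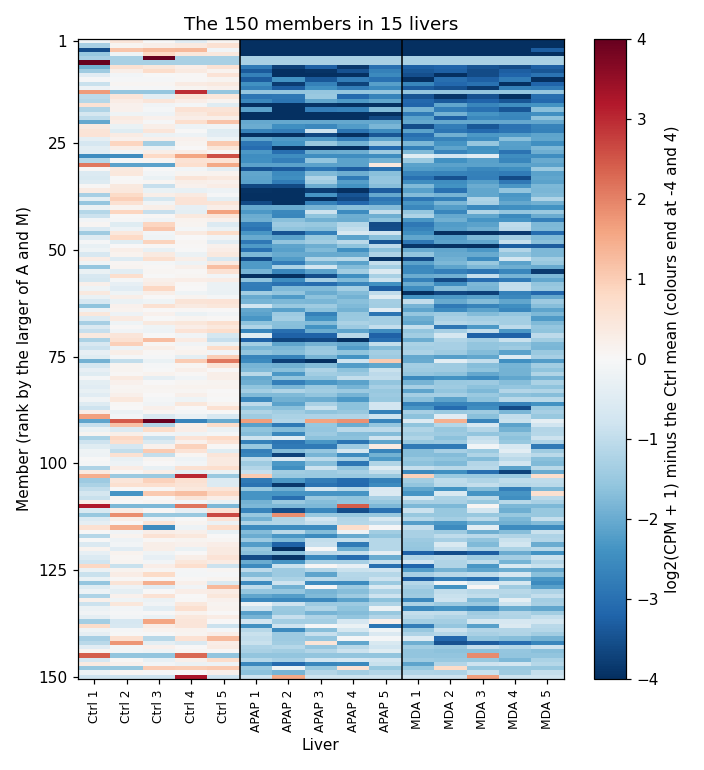
Rows are the 150 members from rank 1 at the top to 150 at the bottom, columns are the 15 livers, and colour gives log2(CPM + 1) minus the mean of the Ctrl livers, with the scale ending at −4 and 4. Treated columns are blue for nearly all members, and the isolated dark red cells in Ctrl columns mark members with most of their Ctrl signal in 1 liver.

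Several members were carried by single Ctrl livers. In 15 of the 150, at least 50% of the summed Ctrl level came from 1 liver, against 3.45% of all kept transcripts, and in 3 of these the share exceeded 95%. The member ranked 5 was at 92.7 CPM in Ctrl liver 3 and the member ranked 6 at 85.1 CPM in Ctrl liver 1, each with 0 in the other 4 Ctrl livers and in all 10 treated livers. Of the 15, 0 had all treated livers below all Ctrl livers. At least 1 Ctrl liver was listed at 0 for 16 members.

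The member ranked 4 differed from these in that every control held it. Its Ctrl livers read 5.11, 14.7, 30.1, 22.9 and 22.4 CPM, and all 10 treated livers read 0. Set against a floor of 3 estimated counts per library, its mean was at least 71.5-fold lower after APAP and at least 79.0-fold lower after MDA. The floor covers counting error only, and does so only if an estimated count stands for a read, which was not tested. There were 7 members at 0 in every APAP liver and 7 at 0 in every MDA liver, and 5 were at 0 in all 10 treated livers. A mean under 1 CPM was reached by 33 members after APAP, by 30 after MDA and by 22 after both.

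Counted over the list, 110 members had all 5 APAP livers below all 5 Ctrl livers, where 4.45% of all kept transcripts did, and 109 had all 5 MDA livers below them, where 2.81% did. For 99 members all 10 treated livers were below all Ctrl livers (1.62% of kept transcripts), for 11 this held after APAP only, for 10 after MDA only and for 30 after neither. Against Ctrl livers 2 to 5 alone the counts were 121 after APAP (5.6% of kept transcripts), 121 after MDA (3.83%) and 116 after both (2.23%). By edgeR's quasi-likelihood test with Benjamini-Hochberg adjustment, 137 members passed as lower after APAP, beside 20.5% of kept transcripts, and 131 after MDA, beside 11.3%. The shares of kept transcripts that passed as higher were 20.3% and 10.6%, and 0 members did. The no-overlap shares are on CPM without centring, where the median transcript was higher in treated livers, and the edgeR shares are after TMM normalization. The 2 kinds of share are therefore on different scales. Without TMM, 7.17% of kept transcripts passed as lower after APAP and 4.11% after MDA. The rule used the same contrasts, and nothing is read from these counts.

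Summed over the list, the members took 6.67%, 7.51%, 8.26%, 7.72% and 7.12% of the Ctrl libraries. After APAP the shares were 1.43%, 1.79%, 2.05%, 2.13% and 1.99%, and after MDA 1.98%, 2.05%, 1.96%, 2.35% and 2.21%. The treated livers of both groups thus lay in the same narrow band, with APAP liver 1 the lowest.

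The sum is weighted to the abundant members, so the median over members of log2(CPM + 1) minus the Ctrl mean was also taken in each liver. It was −0.46 in Ctrl liver 1 and 0.02 to 0.15 in the other 4 Ctrl livers, −2.16 to −1.51 after APAP and −1.85 to −1.69 after MDA. Ctrl liver 1 was thus the lowest control for the typical member, and was the lowest Ctrl liver for 93 of the 150. In Ctrl liver 1 the median over all kept transcripts was also the lowest of the controls, at −0.24 against −0.09 to 0.25 in the others. Relative to that median, the members stood at −0.22 in Ctrl liver 1 and at −0.09 to 0.12 in the other Ctrl livers. No count like the 93 is given for all kept transcripts, so it is a description.

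**Figure D3:**
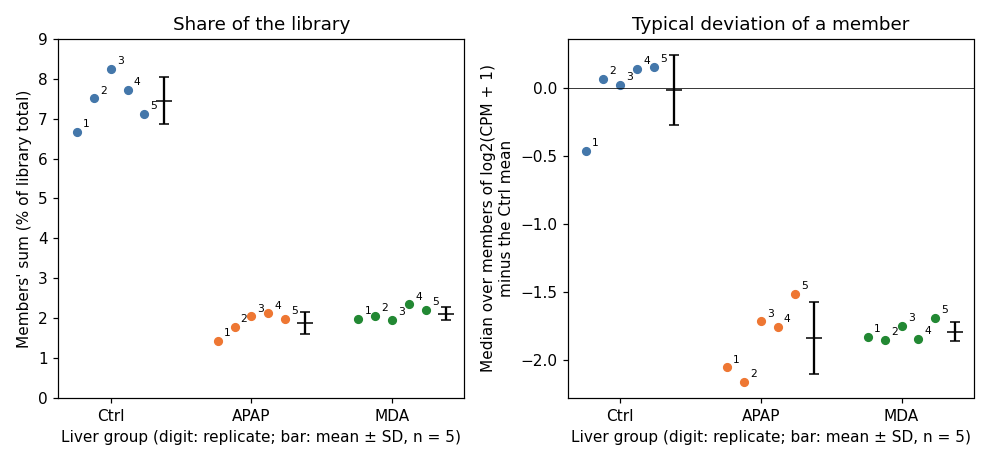
The left panel gives the members' summed share of each liver library in percent, and the right panel the median over members of log2(CPM + 1) minus the Ctrl mean, with 1 point per liver numbered by replicate and bars for mean ± SD (n = 5). In both panels the 10 treated livers lie apart from the 5 Ctrl livers, and in the right panel Ctrl liver 1 is the lowest control at −0.46.

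The members varied among livers of the same group. Of members with a group mean of at least 10 CPM, the median coefficient of variation was 29.2% in Ctrl, 37.6% after APAP and 25.7% after MDA. For all kept transcripts above the same level it was 17.8%, 19.0% and 15.6%. The members of the list were more variable in each of the 3 groups by this measure, which was not tested. The rule chose them by the means of these same livers, so the difference is a description.

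Within the list, APAP and MDA did not lower each member to the same extent. A was the lower value for 94 members and M for 56, and the 2 values were within 0.5 of each other for 74. The decrease was deeper by more than 1 (log2) after APAP for 28 members and after MDA for 13. The edgeR quasi-likelihood test of APAP against MDA, adjusted by Benjamini-Hochberg over 13482 transcripts, passed 30 members as lower after APAP (20% of the members, beside 17% of kept transcripts) and 21 as higher (14%, beside 16.2%). The 2 directions together took 51 members, beside 33.2% of kept transcripts, so the members were near the background. When APAP liver 5 was left out, the count of 21 fell to 12 (8%, beside 15.0%) and the count of 30 rose to 37 (24.7%, beside 17.6%).

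The member with the largest gap between A and M was ranked 18 and was chosen for that gap, so its values are a description. It held 102, 148, 145, 218 and 261 CPM in Ctrl, 0, 4.57, 0.538, 2.17 and 2.76 CPM after APAP, and 22.6, 44.2, 31.3, 27.0 and 29.4 CPM after MDA. The 3 groups did not overlap, with MDA in between. The member ranked 71 had the same order, with means of 302 ± 195, 21.5 ± 6.11 and 98.2 ± 25.4 CPM in Ctrl, APAP and MDA livers, but its 2 lowest Ctrl livers, at 104 and 130 CPM, were below the highest MDA liver at 132 CPM.

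The opposite order was found for the member ranked 49. It was at 37.0 to 51.8 CPM in Ctrl, at 8.69, 9.83, 11.1, 14.4 and 21.7 CPM after APAP, and at 2.15, 2.02, 1.90, 3.70 and 3.68 CPM after MDA, without overlap. The member ranked 142 had means of 16.9 ± 16.5, 7.88 ± 6.35 and 1.02 ± 0.95 CPM in the same groups, with 45.8 CPM in Ctrl liver 2 and 5.56 to 15.4 CPM in the other Ctrl livers, so its Ctrl and APAP livers overlapped.

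The 46 samples from outside the liver did not enter the rule, and most members were hardly present in them. A mean under 1 CPM in every one of the 8 groups (spleen, WBC and 6 sorted cell types) was found for 93 of the 150 members, or 62%, where 12.8% of all kept transcripts were as low. With a limit of 0.1 CPM the members numbered 66, or 44%, beside 6.88% of kept transcripts. Group by group, between 42 members (in WBC) and 50 members (in NK cells) reached 1 CPM, or 28% to 33.3%, while 80.6% to 84.2% of kept transcripts did.

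The low detection held at each level in the liver. Among the 44 members below 10 CPM in Ctrl, 26 were under 1 CPM everywhere outside the liver (59.1%, beside 9.76% of kept transcripts between 2 and 10 CPM). Among the 50 between 10 and 100 CPM there were 34 (68%, beside 10.3%). Among the 56 at 100 CPM or above there were 33 (58.9%, beside 27.5%).

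Other lists cut from the same A and M values differed in how many of their transcripts were that low outside the liver. Of 146 transcripts with A at or below the limit of the list and M above −0.5, 45.2% were under 1 CPM in all 8 groups, and of 25 with M at or below the limit and A above −0.5, 36%. Of 76 transcripts at 100 CPM or more in Ctrl with A and M both within 0.25 of 0, 3.95% were. These lists differ in size and in Ctrl level, whose medians were 37.1, 4.51 and 171 CPM against 43.1 CPM for the members, and the differences between the lists were not tested.

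**Figure D4:**
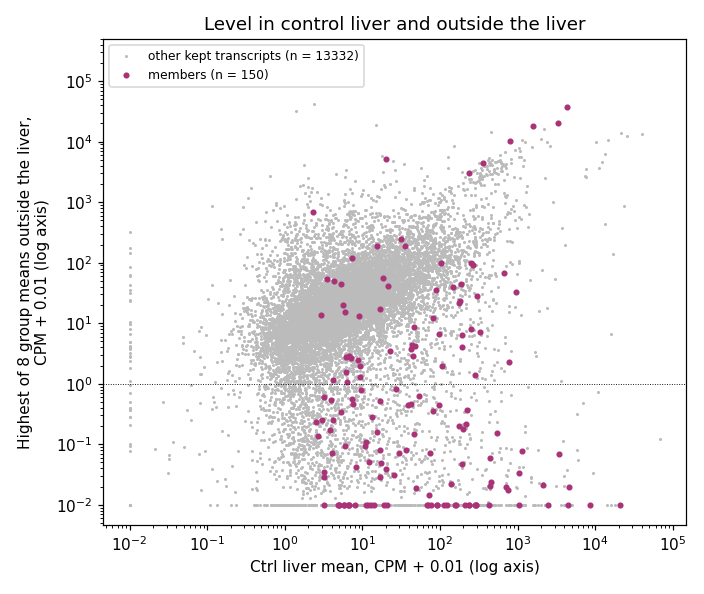
Each point is a kept liver transcript, with its Ctrl liver mean on the horizontal axis and the highest of its 8 group means outside the liver on the vertical axis, both as CPM + 0.01 on log axes. Of the 150 members, in purple, 93 lie below the dotted line at 1 CPM, across the whole range of liver levels, and 6 members form a separate high group at the upper right.

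The 93 members under 1 CPM outside the liver and the 57 others were lowered to a like degree. The median A was −2.43 and −2.46 and the median M −2.30 and −2.18, in that order. They differed in how evenly they were measured. All 10 treated livers were below all Ctrl livers for 72 of the 93 (77.4%) and for 27 of the 57 (47.4%), or for 79 (84.9%) and 37 (64.9%) without Ctrl liver 1. The median coefficient of variation over the Ctrl livers was 29.4% and 42.5%. Of the 15 members carried by 1 Ctrl liver, 6 were among the 93 and 9 among the 57. As the rule used these livers, the counts are a description.

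The 93 accounted for most of the list's share of a library. They took 5.31%, 6.05%, 5.72%, 5.97% and 5.84% of the Ctrl libraries, 1.20% to 1.73% of the APAP libraries and 1.6% to 1.73% of the MDA libraries. Ctrl liver 1 was the lowest control here too, and their treated livers did not reach the controls.

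The 57 members found outside the liver were spread over the groups. The highest of the 8 group means was in WBC for 12, in B cells, NK cells, CD8 T cells, monocytes and spleen for 7 each, in neutrophils for 6 and in CD4 T cells for 4. Only 22 of the 150 had a higher mean in one of these groups than in Ctrl liver (14.7%, beside 74.4% of kept transcripts), and 10 were more than 10 times higher there. These shares are not matched for liver level, since the median Ctrl mean was 43.1 CPM for the members and 5.72 CPM for kept transcripts.

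In the test of spleen against WBC, 45 members passed the filter of a mean of 1 CPM over the 10 samples, all of them among the 57, and the other 105 were not tested. By edgeR's quasi-likelihood test with Benjamini-Hochberg adjustment over 13885 transcripts, 16 of the 45 were lower in spleen (35.6%, beside 23.9% of all tested) and 8 higher (17.8%, beside 22.7%). The 6 members at 1000 CPM or more in WBC, chosen for that level and described below, were all among the 16. A member can pass the filter through the group in which it is high, so these counts are a description.

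The member ranked 3 was among the 8. It was at 21.7, 19.6, 18.6, 22.3 and 19.0 CPM in spleen and at 4.82, 7.52, 5.47, 6.97 and 7.54 CPM in WBC, without overlap, a log2 difference of 1.48 ± 0.12 (SE, edgeR adjusted p = 8.8e-06). Its Ctrl liver mean of 947 CPM was far above either. The member ranked 24 lay in the other direction, at 4.42 ± 1.14 CPM in spleen and 40.6 ± 17.9 CPM in WBC (log2 −3.34 ± 0.29, edgeR adjusted p = 1.3e-05), with 21.4 ± 3.75 CPM in Ctrl liver and 3.55 CPM as the mean after both APAP and MDA. The member ranked 32 was likewise lower in spleen, at 5.59 ± 1.08 against 39.3 ± 11.7 CPM (log2 −2.95 ± 0.21, edgeR adjusted p = 6.9e-06). These examples were chosen after their values were seen.

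Across the 6 sorted cell types, 47 members passed the filter, and 36 of them differed among the types by the edgeR quasi-likelihood test over 5 coefficients with Benjamini-Hochberg adjustment (76.6%, beside 83.4% of 14172 transcripts tested). Most transcripts detected in these cells differ between them, and the members' share was near that background. Here too a member can pass the filter through the type in which it is high, so the count is a description. Of the 36, 14 were highest in B cells, 7 in monocytes, 5 each in CD8 T cells and neutrophils, 3 in NK cells and 2 in CD4 T cells.

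Some members had their highest sorted level in a myeloid cell type. The adjusted p-values given for them are for any difference across the sorted types, and the highest and next type were not tested against each other. The member ranked 14 was at 92.8 ± 5.97 CPM in monocytes and at 30.9 CPM in the next type, neutrophils (edgeR adjusted p across sorted types = 2.4e-18). It was at 265 ± 108 CPM in Ctrl liver, 43.0 ± 24.4 after APAP and 20.2 ± 5.98 after MDA. The member ranked 61 was also highest in monocytes, at 67.0 CPM against 20.8 CPM in the next type (edgeR adjusted p across sorted types = 1.1e-19). The member ranked 54 was highest in neutrophils, at 190.8 ± 46.5 CPM against 63.3 ± 6.26 CPM in monocytes (edgeR adjusted p across sorted types = 9.3e-19). In Ctrl liver it was at 35.2 ± 21.5 CPM.

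Members highest in B cells included some that were minor in the liver. The member ranked 99 was at 4395 ± 156 CPM in B cells and 3021 ± 940 CPM in NK cells (edgeR adjusted p across sorted types = 2.4e-11). It was at 20.2 ± 3.88 CPM in Ctrl liver, 8.05 ± 3.19 after APAP and 6.38 ± 1.45 after MDA. The member ranked 137 was at 629 ± 151 CPM in B cells and at 2.30 ± 2.65 CPM in Ctrl liver, the lowest Ctrl mean of the list, where its SD exceeded its mean (edgeR adjusted p across sorted types = 8.1e-12). Both are at a level in liver far below their mean in B cells, and the cells that carried them in liver were not tested.

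A group of 6 members, ranked 44, 45, 48, 52, 124 and 138, was at 1000 CPM or more in WBC, with WBC means from 3025 to 37844 CPM. They were chosen for that level, and the highest WBC mean among the other members was 985 CPM. In Ctrl liver the means of the 6 ran from 238 to 4377 CPM and together took 1.06% of a library. Their median A was −2.53 and median M −2.31, close to the medians of the whole list. Their cell of origin in the liver was not tested.

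The leading one was ranked 48. It was at 4008, 2938, 7584, 4358 and 2998 CPM in Ctrl livers, at 569, 1384, 1557, 1956 and 379 CPM after APAP and at 563, 935, 971, 2147 and 1301 CPM after MDA. In WBC it was at 79004, 47826, 22899, 21322 and 18169 CPM and in spleen at 13022, 18985, 11161, 14974 and 11784 CPM. Treated livers did not overlap Ctrl livers, and WBC replicates 1 and 2 were well above the other 3 WBC samples. The spleen and WBC ranges overlapped, since 1 spleen, at 18985 CPM, was above the lowest WBC sample.

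Summed, the 6 members were at 9627, 7400, 18207, 10600 and 7296 CPM in Ctrl livers, at 1358, 3477, 4098, 5064 and 894 CPM after APAP, and at 1380, 2385, 2326, 5117 and 3234 CPM after MDA. Every treated liver was below every Ctrl liver in this sum, and the ranges after APAP and after MDA overlapped. Taken singly this held for 4 of the 6, beside 99 of the 150 members and 1.62% of all kept transcripts. The rule chose the members by the means of these same livers, so the lack of overlap is a description. The members ranked 124 and 138 overlapped, with a highest treated level of 725 and 212 CPM, both in APAP liver 3, above a lowest Ctrl level of 379 and 119 CPM. In WBC the sum was 206789, 116970, 53714, 52607 and 43218 CPM, in spleen 25848 to 44770 CPM and in sorted samples 9759 to 73029 CPM, so that all 46 samples from outside the liver were above the treated livers.

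**Figure D5:**
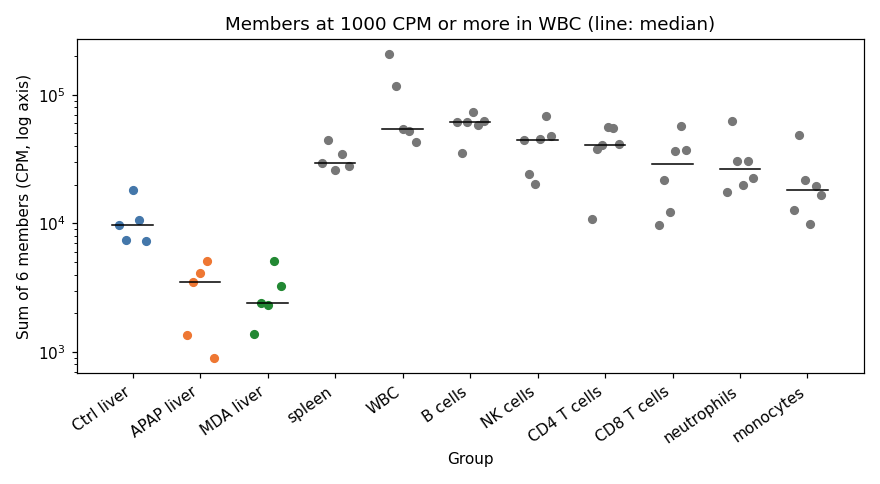
Points give, for each sample, the summed CPM (log axis) of the 6 members at 1000 CPM or more in WBC, by group, with a line at the group median. Treated livers lie between 894 and 5117 CPM, Ctrl livers between 7296 and 18207 CPM, and WBC replicate 1 is the highest sample at 206789 CPM.

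The fitted log2 differences of the 6 between spleen and WBC ran from −2.08 to −1.65. As the 6 were chosen for their WBC level, these are a description, and nothing is read from their calls between spleen and WBC. Without replicate 1 of both groups the difference of the member ranked 48 was −1.09. Among the sorted types 4 of the 6 passed the edgeR quasi-likelihood test with Benjamini-Hochberg adjustment, beside 83.4% of 14172 transcripts tested. The adjusted p of the 6 ran from 0.012 to 0.057. All 6, called or not, had their highest sorted mean in B cells.

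The levels of the other 5 were set against that of the member ranked 48 in each sample, and 1 of the 5 ratios did not overlap between the 15 livers and the 46 other samples. The member ranked 44 stood at 0.323 to 0.390 times the member ranked 48 in livers and at 0.454 to 0.518 times elsewhere. The Ctrl range of this ratio, 0.337 to 0.390, overlapped the APAP range of 0.323 to 0.388 and the MDA range of 0.330 to 0.363. The other 4 ratios overlapped between livers and the other samples. They were 0.509 to 0.899 and 0.390 to 0.717 for the member ranked 45, and 0.0479 to 0.102 and 0.0628 to 0.149 for the member ranked 52. For the members ranked 124 and 138 they were 0.113 to 0.465 and 0.110 to 0.382, and 0.0354 to 0.136 and 0.0415 to 0.107.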

How the data were processed

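Paired-end RNA sequencing libraries of 61 rat samples were used. The authors trimmed the reads with PRINSEQ++, quantified transcripts with Salmon 1.6.0 against the Ensembl cDNA of Rnor_6.0 with a decoy-aware index, and imported them with tximport in R 4.1.3. The deposited values are named TPM in the methods, but their totals follow library size and 0% are whole, so they were used as estimated counts. 0 columns were left unassigned. The list was built on CPM as described, with a pseudocount of 1 CPM.

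Counts were rounded and tested with edgeR 4.0.16 (quasi-likelihood F test, TMM, mean of at least 1 CPM, Benjamini-Hochberg over all transcripts, threshold 0.05), in R 4.3.3. The 15 livers, the 10 spleen and WBC samples and the 36 sorted samples had 1 fit each. DESeq2 1.42.0, limma 3.58.1 on log2(CPM + 1), other filters, only the groups compared, a replicate block and leaving out each replicate were alternatives. Those added after the data were seen were no TMM, other limits of detection and leaving out neutrophil replicate 5, the shallowest library.

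Members and lists were chosen with earlier results of these data known. The 2 printed identifiers are the member with the deepest decrease after its weaker treatment and the most abundant member in Ctrl. Other members are given by rank. Gene lists that needed names were not used.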

Additional observations from a re-analysis of the deposited data

Results flagged for a closer look

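Of 33 groups of 5 or 6 samples checked for a sample far from the others with Dixon's criterion, 5 had one, and chance alone flags about 1 in 20 groups. The median over members of log2(CPM + 1) minus the Ctrl mean was −0.46 in Ctrl liver 1, against 0.02 to 0.15 in the other Ctrl livers. Over all kept transcripts the same median was also lowest in Ctrl liver 1, at −0.24 against −0.09 to 0.25. The summed level of the 6 members that were high in WBC was 62903 CPM in neutrophil replicate 2, against 17530 to 30672 CPM in the other neutrophil samples, and 48931 CPM in monocyte replicate 2, against 9862 to 21748 CPM in the other monocyte samples. The member ranked 3 was at 14.2 CPM in APAP liver 5, against 1.46 to 4.74 CPM in the other APAP livers, and at 58.8 CPM in MDA liver 5, against 13.7 to 24.0 CPM in the other MDA livers.

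For 51 of the 150 members the effects of APAP and MDA differed by the edgeR quasi-likelihood test of APAP against MDA with Benjamini-Hochberg adjustment, 30 with the lower level after APAP and 21 with the lower level after MDA. Of all kept transcripts 33.2% did, and the same livers served to choose the members.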

How the results depend on the processing

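Of the values recomputed under an alternative, 326 kept their direction and stayed within 1.5 times the count or on the same side of the threshold, 11 counts moved further, 5 passed the threshold that had not, and 1 turned its sign. Restricted to a mean of at least 10 CPM, 86 of the 150 members remained in the list, and 6079 transcripts were tested in place of 13482. Of the 6079, 1660 were lower after APAP (27.3%), 969 after MDA (15.9%) and 1522 for APAP against MDA (25.0%). At 1 CPM these were 2766 (20.5%), 1530 (11.3%) and 2295 (17.0%). Of the 86 members tested, 84 were called lower after each toxicant (97.7%), and the rule used the same contrasts. Without TMM normalization 966 transcripts were lower after APAP and 554 after MDA, with 88.6% and 91.5% of the called transcripts higher in place of 49.7% and 48.4%, 63.9% in place of 48.8% for APAP against MDA, and for spleen against WBC 4881 higher and 2045 lower in place of 3154 and 3315. That setting moved the median of all transcripts to 0.75 after APAP and 0.56 after MDA (log2), and the members' medians were −2.11 and −2.15 in place of −2.84 and −2.66. Leaving out 1 replicate at a time gave 12 to 25 members higher after APAP than MDA (8% to 16.7%). Beside these were 1694 to 2096 of all transcripts tested (12.6% to 15.5%). The same fits gave 24 to 37 members lower (16% to 24.7%), beside 1918 to 2372 of all transcripts tested (14.2% to 17.6%). Without APAP replicate 5 there were 12 members higher and 37 lower. The APAP against MDA difference of ENSRNOT00000010639, near 0 in both groups, was 0.48 (log2) with all replicates and ranged from −0.011 without APAP replicate 5 to 1.09 without MDA replicate 5. Leaving out 1 liver kept 135 to 144 of the members in the list. Replicate numbers did not pair the livers (r from −0.29 to 0.17 over 15 pairs, and 6 of 30 best matches to the own number). With the replicate number as a block 135 members were lower after APAP, beside 19.4% of kept transcripts, and 132 after MDA, beside 9.9%. For APAP against MDA the block gave 27 members lower, beside 15.7%, and 18 higher, beside 14.5%. Replicate numbers were looked at outside the liver too. Nor did they pair spleen with WBC (r from −0.0057 to 0.028). In the sorted samples 24 of 90 pairs were over 0.1, and 61 of 180 best matches were to the own number. Of the 24, 22 were among the 36 pairs of spleen types (r from −0.13 to 0.58). The spleen types may thus be paired by number, which the main fit left out. Whether they share an animal is not given in the labels. With the block, 36 members differed among the sorted types, beside 84.2% of all transcripts tested, and 33 of the 36 were called in both fits. The 6 members high in WBC then had edgeR adjusted p from 0.0033 to 0.028 (0.00051 to 0.22 over the settings tried), so that all 6 passed. Members at a low level are limited by depth: 44 were under 10 CPM in Ctrl, where 3 estimated counts in a treated liver are 0.212 to 0.285 CPM.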
